A study of Xenopus laevis with 27 samples.

Results

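Solute carriers are membrane proteins that move sugars, amino acids, nucleosides, vitamins, metals and inorganic ions across cell and organelle membranes. They work as exchangers, as facilitated carriers or by coupling transport to the gradient of another ion, and their names give the family number, the letter a and the member number. In vertebrate embryos their expression marks differentiating tissues, such as the kidney tubule, neurons, the acid-base regulating ionocytes of the frog epidermis, pigment cells and blood. The members described here are the probe sets of an Affymetrix Xenopus laevis array whose platform gene symbol begins with slc, a number and the letter a or o, without the mitochondrial slc25 family and without slc26a4l. They are 206 of the 32635 probe sets on the array, and they represent 141 genes of 45 families. Xenopus laevis is an allotetraploid frog, and 141 member probe sets are assigned to a homeolog on an L chromosome and 62 to a homeolog on an S chromosome. The symbol rule also takes in 4 probe sets of slc9a3r1 and slc9a3r2, which encode scaffold proteins, and 2 of slc7a6os, a gene named for lying on the opposite strand of slc7a6. These 6 are kept as members and are not transporters.

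Embryos received 1.5 ng of RNA in 1 blastomere at the 2-cell stage, so that only part of each embryo inherited the injected RNA, and total RNA of 10 whole embryos was pooled for each array. NICD (named ICD in the sample labels) is the intracellular domain of Notch and activates the pathway, DBM is a form of the Notch effector Suppressor of Hairless that cannot bind DNA and blocks the pathway, and GFP was the tracer and the injection control, present in all embryos by the series design. The 9 groups were NICD, DBM and GFP embryos at stage 18 (neurula), stage 28 (tailbud) and stage 38 (tadpole), with 3 arrays in each, and no other genotype or treatment is labelled. Values are RMA expression values on the log2 scale, and a probe set is called where its adjusted p from the limma model of all 27 arrays is below 0.05.

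The 27 arrays had medians of 6.83 to 6.99 over all probe sets and of 7.33 to 7.71 over the members, and 150 of the members had a mean of 6 or more. Arrays with the same replicate number deviated together within a stage, so values with the replicate number as a block are given where they change a call or a count. At stage 18 the arrays numbered 1 stood apart over the whole array whatever the construct: their deviations from the group means correlated with those of every array numbered 2 or 3 at -0.69 to -0.56 over all probe sets and at -0.82 to -0.66 over the members. For slc30a8.L, a zinc transporter gene, those 3 arrays read 10.06 to 10.84 and the other 6 read 13.12 to 13.86. The numbers 2 and 3 did not separate at this stage, and the counts with the block at stage 18 rest on that pairing. In RNA of whole embryos, fewer cells of a type and less RNA per cell cannot be told apart.

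The first question was how the members change as GFP embryos develop. Between stage 38 and stage 18, 145 of 206 members (70.4%) were differentially expressed, against 64% of all probe sets tested. At stage 38, 66 were higher (26.9% of all probe sets were) and 79 lower (37% of all). Between stage 28 and stage 18 the count was 111 (53.9%; 51.4% of all), with 56 higher (22.1% of all) and 55 lower (29.3% of all). Between stage 38 and stage 28 it was 103 (50%; 41.3% of all), with 45 higher (18.9% of all) and 58 lower (22.5% of all). The 3 arrays of the later stage did not overlap with the 3 of the earlier for 67.2%, 57.1% and 51.3% of all probe sets in these comparisons. The median size of the change between stage 38 and stage 18 was 0.65 log2 units for the members and 0.53 for all probe sets. Leaving out 1 array at a time kept these counts between 132 and 142, between 103 and 107 and between 89 and 97, in the same order.

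The largest increase was that of slc40a1.S, which encodes ferroportin, the cellular iron exporter. Its values in GFP embryos were 4.94, 5.07 and 4.90 at stage 18, 7.47, 8.60 and 7.74 at stage 28, and 11.18, 11.43 and 11.49 at stage 38. No array of a stage overlapped with those of another, and stage 38 was higher than stage 18 by 6.39 ± 0.26 (SE; adjusted p = 3.05e-15). Among the 31 members for metal ions and heme, 8 were higher and 12 lower at stage 38 than at stage 18, with a median difference of -0.10. The higher ones included slc31a1, the copper importer, by 1.91 (L) and 1.41 (S), and slc48a1, a heme transporter, by 1.28 (L) and 1.18 (S). The lower ones included slc31a2.S, of the same copper transporter family, by 0.75 (adjusted p = 2.09e-05), and the zinc transporter gene slc30a8.L. Of 12 probe sets on a list of red blood cell genes, 10 were higher at stage 38 than at stage 18 and none lower. On a list of liver genes, 11 of 12 were higher and none lower. The part of red cells or liver in these results was not tested.

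Of the 10 neurotransmitter transporter probe sets, 4 were higher and 2 lower at stage 28 than at stage 18, and 5 were higher and 5 lower at stage 38 than at stage 18. For slc32a1.S, the vesicular transporter that loads GABA and glycine into synaptic vesicles, GFP values were 4.15, 4.24 and 3.70 at stage 18, 7.29, 6.93 and 7.16 at stage 28, and 9.0, 8.81 and 8.71 at stage 38. The stages did not overlap, and stage 38 exceeded stage 18 by 4.81 ± 0.19 (adjusted p = 1.55e-15). The vesicular glutamate transporter gene slc17a7.S rose by 2.67 and the neuronal potassium-chloride cotransporter gene slc12a5.L by 1.85 over the same interval. For slc1a3.L, a glutamate transporter of glia and neural progenitors, the increase was called between stage 28 and stage 18, at 8.74 ± 0.94 against 5.09 ± 0.60 at stage 18 (SD, n = 3; adjusted p = 4.87e-06), and the difference of -1.08 between stage 38 and stage 28 was not called (adjusted p = 0.109). The plasma membrane GABA transporter gene slc6a13.L was 3.31 higher at stage 28 than at stage 18 and then fell by 1.33 to stage 38. The 5 probe sets that were lower at stage 38 than at stage 18 were the 2 of slc17a9.L, a vesicular nucleotide transporter gene (by 1.50 and 0.65), the 2 of the vesicular monoamine transporter gene slc18a1.S (by 1.11 and 0.86) and that of slc18a2.L (by 0.41). The signal of slc18a2.L was low on all 27 arrays, as given below. A list of neuronal genes had 12 of 17 probe sets higher at stage 38 than at stage 18 and 1 lower.

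Some members rose mainly after stage 28, among them genes of transporters known from the mammalian kidney and gut, which are named here because they rose. Others known from such tissues fell, with slc2a2.L, the glucose transporter GLUT2, lower at stage 38 than at stage 28 by 2.08, the amino acid transporter gene slc6a14.2.L by 2.08 and the monocarboxylate transporter gene slc5a8.1.L by 3.59. The gene of the neutral amino acid transporter B0AT1, slc6a19, had GFP values of 4.35, 4.14 and 4.21 at stage 18, 4.71, 4.89 and 4.80 at stage 28, and 7.67, 7.63 and 7.71 at stage 38 for the L copy. Most of its increase fell after stage 28, where it amounted to 2.87 ± 0.14 (adjusted p = 6.37e-13), and the S copy rose by 2.08 in that interval. Between stage 38 and stage 28, increases were also called for slc5a2.L, the sodium-glucose transporter SGLT2 of the mammalian proximal tubule (2.17), for slc26a1.L, a sulfate anion transporter (2.18), for slc5a11.L, a sodium-coupled inositol transporter (1.96), and for slc26a6.2.L, an anion exchanger (1.66). Before that, the 3 GFP arrays of slc5a11.L read 3.85 to 4.08 at stage 18 and 3.79 to 3.83 at stage 28. On a marker list of gut genes, 7 of 11 probe sets were higher at stage 38 than at stage 28 and 1 lower. On a list of pronephros genes, 3 of 11 were higher and 0 lower, beside 18.9% of all probe sets higher. Between stage 38 and stage 18 the pronephros list had 3 higher and 5 lower.

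Amino acid transporters, the largest class, had 15 of 39 probe sets higher and 11 lower at stage 38 than at stage 18. Of all probe sets, 26.9% were higher and 37% lower. Some smaller classes had a greater share of increases, such as sugar transporters with 9 of 17 and neurotransmitter transporters with 5 of 10. Others had a smaller share, such as metal ion and heme transporters with 8 of 31 and nucleotide sugar transporters with 2 of 16. Both copies of slc43a2, a facilitative transporter of large neutral amino acids, rose at each step, by 4.05 (L) and 3.39 (S) in all, and its relative slc43a1.L rose by 2.88. A probe set of slc3a2.L, the heavy chain shared by several amino acid exchangers, rose by 3.03, and its other probe set by 0.55. The gene slc36a1.L, of a lysosomal proton-coupled transporter, rose by 2.56. The decreases in the class included slc6a14.2.L (2.11 lower), slc38a2.L (1.85 lower) and slc1a5.S (1.54 lower), which encode transporters of neutral and, for slc6a14, also cationic amino acids. The gene of the pigment cell protein slc45a2.L, needed for melanin synthesis, rose by 3.65 ± 0.17 to 9.71 ± 0.17 at stage 38, against 6.06 ± 0.13 at stage 18 (difference with SE, means with SD).

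Decreases of similar size were found for members with strong signal at stage 18. The sodium-coupled monocarboxylate transporter gene slc5a8.1.L read 12.51, 12.73 and 12.89 at stage 18, 10.18, 10.35 and 10.81 at stage 28, and 6.75, 6.86 and 6.96 at stage 38. All 3 stages were separate, and stage 38 was lower than stage 18 by 5.85 ± 0.23 (adjusted p = 1.25e-15). The organic cation transporter genes slc22a4.L and slc22a5.L, whose human counterparts carry ergothioneine and carnitine, fell by 5.06 and 3.83 for the probe sets with the larger change. Their other probe sets fell by 0.71 and 2.40, in the same order. The probe sets of slc22a4.L end in _s_at, a suffix for probes shared by several transcripts. Most of the larger decrease of slc22a4.L (3.85) fell before stage 28. For slc30a8.L, a zinc transporter known from the secretory granules of pancreatic beta cells in mammals, the decrease of 5.14 ± 0.85 came mostly after stage 28. Its 3 values at stage 18 (10.36, 13.12 and 13.16) spread more than those at stage 38 (6.79, 6.84 and 7.59), and the array numbered 1 was the low one. Without that array the difference between stage 38 and stage 18 was -6.07, against -4.91 between stage 38 and stage 28. The part of the decrease before stage 28 therefore depends on that array. The glucose transporter gene slc2a2.L also fell late, by 2.08 between stage 38 and stage 28.

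**Figure D1:**
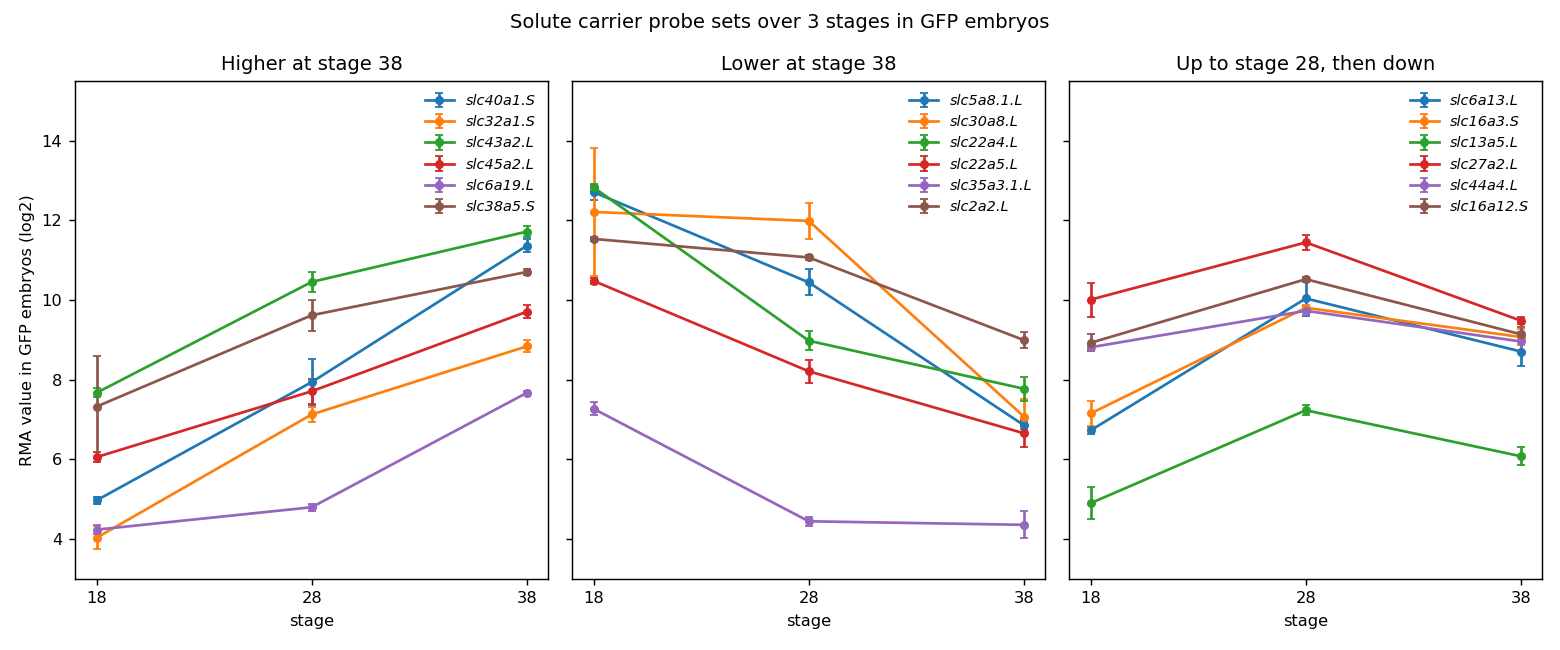
Mean RMA values (log2, vertical axis) of 18 solute carrier probe sets in GFP embryos at stages 18, 28 and 38 (horizontal axis), with bars of 1 SD over 3 arrays. Ferroportin slc40a1.S climbs the most in the left panel, to 11.36 at stage 38, slc5a8.1.L drops to 6.86 in the middle panel, and the right panel holds members that were called higher at stage 28 than at stage 18 and lower again at stage 38.

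By transport class, the direction of change between stage 38 and stage 18 differed. Of all probe sets, 26.9% were higher and 37% lower. Of the 16 probe sets of nucleotide sugar and sugar phosphate transporters (families SLC35 and SLC37, of Golgi and endoplasmic reticulum), 11 were lower at stage 38 than at stage 18 and 2 higher, with a median difference of -0.72, against -0.12 over all probe sets. The largest decrease was that of slc35a3.1.L, an SLC35A3 gene whose human counterpart carries UDP-N-acetylglucosamine, at 2.91 ± 0.15, and it was already at 4.44 ± 0.11 at stage 28. The exceptions were slc37a4.L, the glucose-6-phosphate transporter gene (1.50 higher), and slc35a1.L, the CMP-sialic acid transporter gene (0.89 higher). Organic ion transporters had 7 decreases and 2 increases in 11 probe sets, and monocarboxylate transporters 5 and 2 in 9. Sugar transporters had 6 decreases and 9 increases in 17, and anion transporters 3 and 6 in 13. These classes were described by counts alone and were not tested against each other. Several of the decreased probe sets belong to the same gene, which holds for slc35a2, slc35a3.2, slc37a1, slc22a4.L, slc22a5.L and slc16a1. For slc35a2 these were 1 probe set of the L copy and 4 of the S copy.

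**Figure D2:**
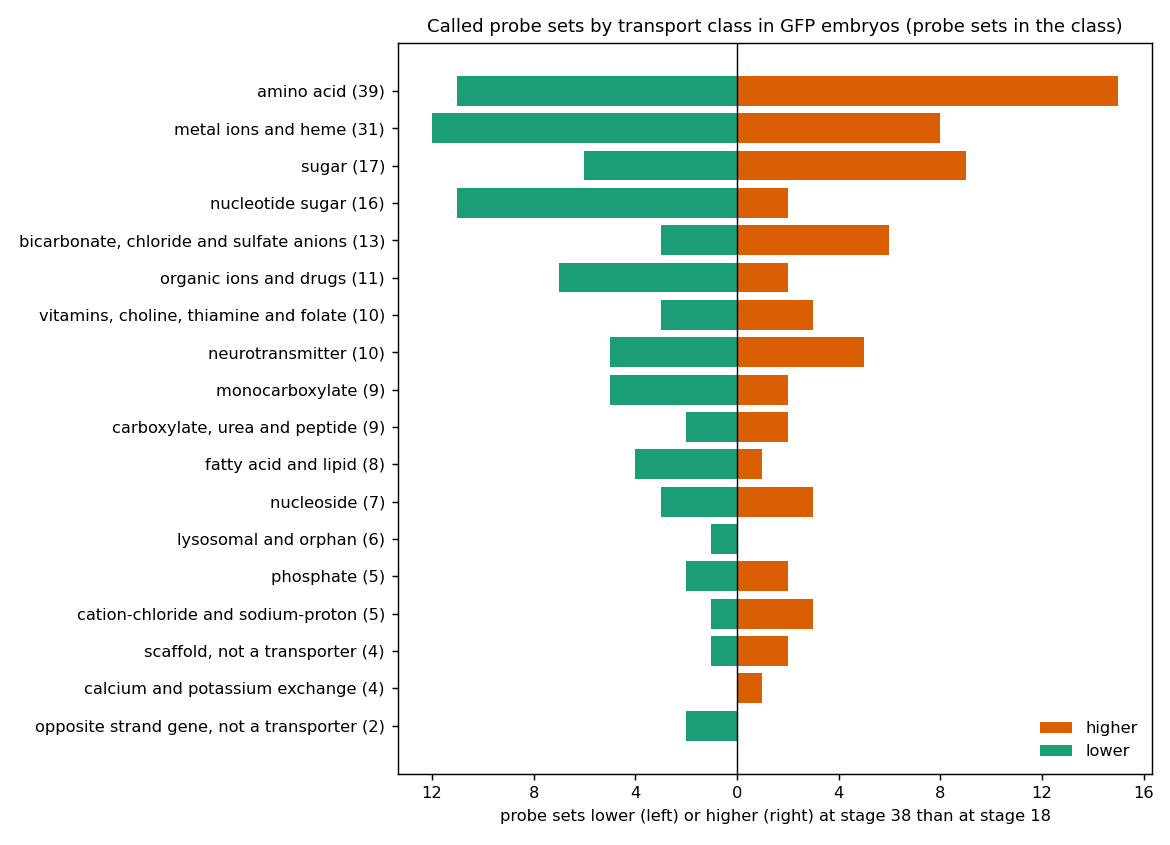
Number of member probe sets called lower (left, green) and higher (right, orange) at stage 38 than at stage 18 in GFP embryos, by transport class, with the size of the class in parentheses. Nucleotide sugar transporters stand at 11 lower and 2 higher, and amino acid transporters at 11 lower and 15 higher.

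A rise to stage 28 followed by a fall was called for 17 members (8.25%, against 4.16% of all probe sets). Beside slc6a13.L they included slc13a5.L, the sodium-citrate cotransporter gene (4.45, 5.04 and 5.21 at stage 18, 7.08, 7.33 and 7.29 at stage 28, 5.85, 6.08 and 6.30 at stage 38). They also included slc16a3.S and slc16a12.S, of the monocarboxylate family, slc27a2.L and slc27a6.L, fatty acid transporter genes, slc44a1.L and slc44a4.L, choline transporter and related genes, and the pendrin gene slc26a4.3.S. For slc27a2.L and slc44a1.L this held for a single probe set. The other probe sets of slc27a2.L were called at neither step, and the other of slc44a1.L was called only for the fall after stage 28. The opposite course was called for 5 members (2.43%, against 2.79% of all), among them slc3a1.L. Neither step was called for 45 members (21.8%, against 32.7% of all).

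Both copies were measured for 27 genes. Between stage 38 and stage 18 in GFP embryos, both copies rose in 8 genes and fell in 5, and in 9 genes the call was made for a single copy. In 2 genes the copies moved in opposite directions. For slc16a3, the gene of the lactate exporter MCT4, the L copy fell by 2.04 (12.48, 12.44 and 12.43 at stage 18, 10.79, 10.06 and 10.40 at stage 38), while the S copy rose by 1.92 (7.51, 7.04 and 6.91 at stage 18, 9.03, 9.29 and 8.89 at stage 38). No array of stage 38 overlapped with stage 18 for either copy. For slc2a9, a urate transporter gene, the L copy was higher at stage 38 by 1.15, the mean of its 2 probe sets, and the S copy was lower by 1.0. In slc17a7 both copies rose, the S copy by 2.67 and the L copy by 0.53 at values between 3.83 and 4.53. The median distance between the differences of the copies was 0.62, and how far a probe set also reads the other copy was not tested.

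**Figure D3:**
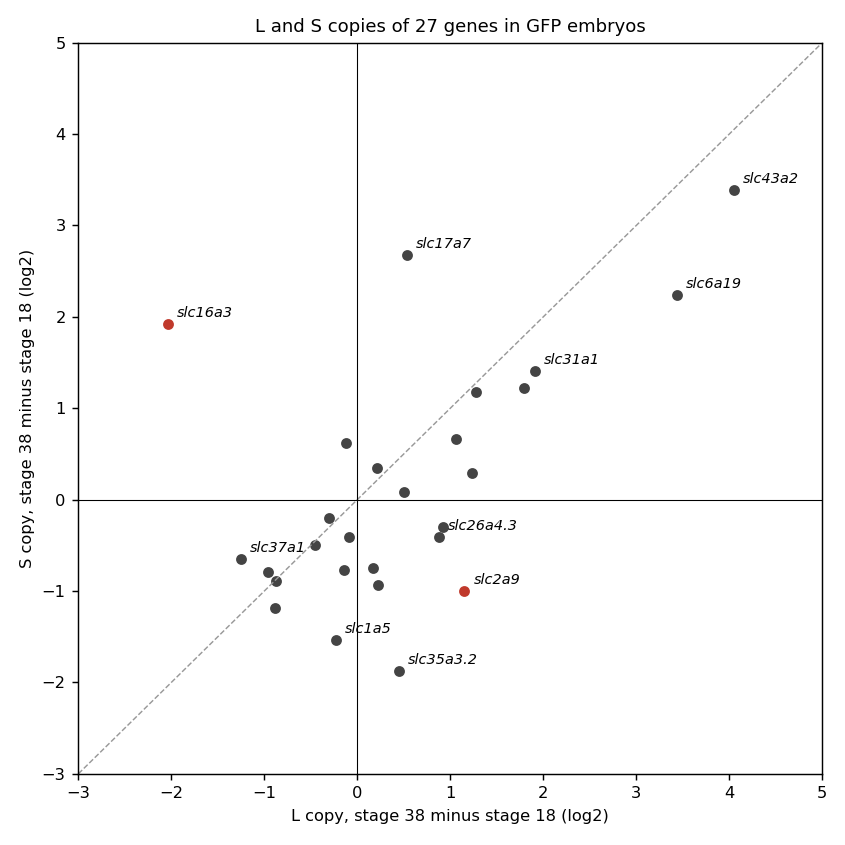
Difference between stage 38 and stage 18 in GFP embryos (log2) of the L copy (horizontal axis) against that of the S copy (vertical axis) for 27 genes, each point the mean over the probe sets of a copy, with the dashed line marking equality. The 2 red points, slc16a3 and slc2a9, lie where the copies were called in opposite directions, and slc43a2 lies at the top right with 4.05 for L and 3.39 for S.

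The second question was which members respond to activation of Notch. NICD and DBM embryos of a stage were compared with the same 3 GFP arrays, so the comparisons are not independent of each other. At stage 18, 6 of 206 members (2.91%) differed between NICD and GFP embryos, against 1.62% of all probe sets. In NICD embryos 2 were higher (0.881% of all) and 4 lower (0.736% of all). With the replicate number as a block the count was 45 (21.8%, against 13.4% of all), with 14 higher (6.23% of all) and 31 lower (7.13% of all). Fitted on the 6 arrays of the comparison alone the count was 0. Without GFP replicate 1 the count was 11, without NICD replicate 1, NICD replicate 2, NICD replicate 3, GFP replicate 2 or GFP replicate 3 it was 3, 2, 4, 1 and 1.

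The clearest of the 6 was slc3a1.L, the gene of rBAT, a heavy chain that pairs with the light chain slc7a9 to import cystine and basic amino acids in the kidney and gut of mammals. It read 7.80, 6.94 and 7.25 in NICD embryos, 6.48, 5.75 and 6.22 in DBM embryos, and 6.40, 5.56 and 5.71 in GFP embryos at stage 18. All NICD arrays lay above all DBM and GFP arrays. NICD exceeded GFP by 1.44 ± 0.21 (SE; adjusted p = 0.000592) and DBM by 1.18 ± 0.21 (adjusted p = 0.00512), and both calls were kept when any 1 array was left out. On the arrays of the comparison alone the adjusted p was 0.2 against GFP and 0.333 against DBM. The increase over GFP was smaller by 1.17 at stage 28 than at stage 18, a difference called with the block only (adjusted p = 0.209 without and 0.000261 with it), and at stage 38 NICD arrays read 5.49 to 5.91 and GFP arrays 5.87 to 6.08. The light chain gene slc7a9.L read 4.73, 6.24 and 6.68 in NICD embryos and 4.83, 5.67 and 5.40 in GFP embryos at stage 18. Its groups overlapped, with the lowest value of each in replicate 1, and the difference of 0.58 was called only with the block (adjusted p = 0.0216). The probe set of slc3a1.L ends in _s_at, the manufacturer's suffix for probes shared by several transcripts.

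The pendrin gene slc26a4.3, a chloride-bicarbonate exchanger of ionocytes, was lower with NICD. The S copy read 7.88, 8.59 and 8.54 in NICD embryos at stage 18, against 9.13, 9.56 and 9.73 in GFP embryos, without overlap (difference -1.14 ± 0.29, adjusted p = 0.0463). At stage 28 it read 9.27, 9.25 and 8.81 in NICD embryos, against 10.09, 10.83 and 10.15 in GFP embryos, again without overlap, and it was the only member called there (difference -1.25 ± 0.29, adjusted p = 0.0452). At stage 38 NICD arrays (7.48, 8.79 and 8.22) were below DBM arrays (9.21, 9.24 and 9.93), with a difference of -1.30 ± 0.29 (adjusted p = 0.0362), and the difference of -0.90 from GFP was not called. NICD and GFP arrays did not overlap for 15.1% of all probe sets at stage 18 and for 15.9% at stage 28. The calls of slc26a4.3.S depended on single arrays. With 1 array left out, that at stage 18 held only without GFP replicate 1, that at stage 28 was lost whichever array was dropped, and that against DBM at stage 38 only without NICD replicate 2. With the block all 3 were called (adjusted p of 0.00265, 0.00241 and 0.00223).

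The L copy of slc26a4.3 read 8.05, 7.73 and 7.62 in NICD embryos and 8.84, 8.88 and 8.89 in GFP embryos at stage 18. Its arrays did not overlap either, and the difference of -1.07 ± 0.34 had an adjusted p of 0.129, or 0.00805 with the block. On a list of ionocyte genes that holds neither copy, 10 of 14 probe sets were lower in NICD than in GFP embryos at stage 18 and 1 at stage 28. The mean level of that list at stage 18 was 8.13 to 8.31 on NICD arrays and 8.71 to 9.17 on GFP arrays, and the part of ionocyte number in the values of slc26a4.3 was not tested.

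Smaller differences completed the calls at stage 18. The dicarboxylate transporter gene slc13a3.L read 8.64, 7.71 and 7.95 in NICD embryos and 8.74, 8.99 and 8.88 in GFP embryos, a difference of -0.77 ± 0.19 (adjusted p = 0.0398). The organic cation and carnitine transporter gene slc22a16.L was lower by 0.53 ± 0.12 (adjusted p = 0.0258), and slc49a3.S by 0.48 ± 0.11 (adjusted p = 0.0239). The scaffold gene slc9a3r1.L was higher by 0.33 ± 0.08 (adjusted p = 0.0463). In each of them the NICD and GFP arrays did not overlap, as was the case for 15.1% of all probe sets. Leaving out NICD replicate 2, GFP replicate 2 or GFP replicate 3 ended the calls of slc13a3.L, slc22a16.L and slc9a3r1.L. GFP replicate 2, GFP replicate 3 or NICD replicate 1 ended that of slc49a3.S. NICD replicate 1 also ended those of slc22a16.L and slc9a3r1.L, NICD replicate 3 those of slc13a3.L and slc9a3r1.L, and GFP replicate 1 that of slc9a3r1.L.

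Among the 39 further members called at stage 18 with the block, the greatest difference was that of the glial glutamate transporter gene slc1a3.L. It read 6.91, 6.83 and 6.88 in NICD embryos, 4.97, 5.31 and 4.96 in DBM embryos and 4.48, 5.69 and 5.10 in GFP embryos. The NICD arrays lay above the other 6, and NICD exceeded GFP by 1.79, with an adjusted p of 0.0959 without and 0.00017 with the block. Decreases with the block included 2 probe sets of slc7a7.L, both copies of slc7a8, slc43a2.S and a probe set of slc1a5.L, genes of light chains and carriers of neutral amino acids. The 3 probe sets of slc1a5.L had differences between -0.34 and 0.12. The amino acid class had 7 lower and 3 higher of 39, beside 31 lower of all 206 members and 7.13% of all probe sets lower, and it was not tested against other classes. Nucleotide sugar and sugar phosphate transporters had 6 lower and 1 higher of 16, led by slc37a1.L (0.86 lower), slc35a3.2.L (0.63 lower) and slc35a3.1.L (0.59 lower). The shift of this class was not particular to NICD. Its median difference from the same GFP arrays was -0.19 in NICD and -0.19 in DBM embryos, and between NICD and DBM it was 0.01. The L copy of slc16a3 was lower by 0.67 (adjusted p = 0.114 without and 0.000361 with the block). In DBM embryos at stage 18, 0 members were called against GFP with or without the block. Of all probe sets, 0% were called without it and 0.237% with it. An unadjusted p below 0.05 was found for 13 members (6.31%, against 4.74% of all). The DBM and GFP arrays did not overlap for 8.83% of all probe sets. The lowest p belonged to slc38a2.L (0.44 higher, adjusted p = 0.972), slc41a2.L (0.44 higher) and slc2a4.L (0.38 lower).

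**Figure D4:**
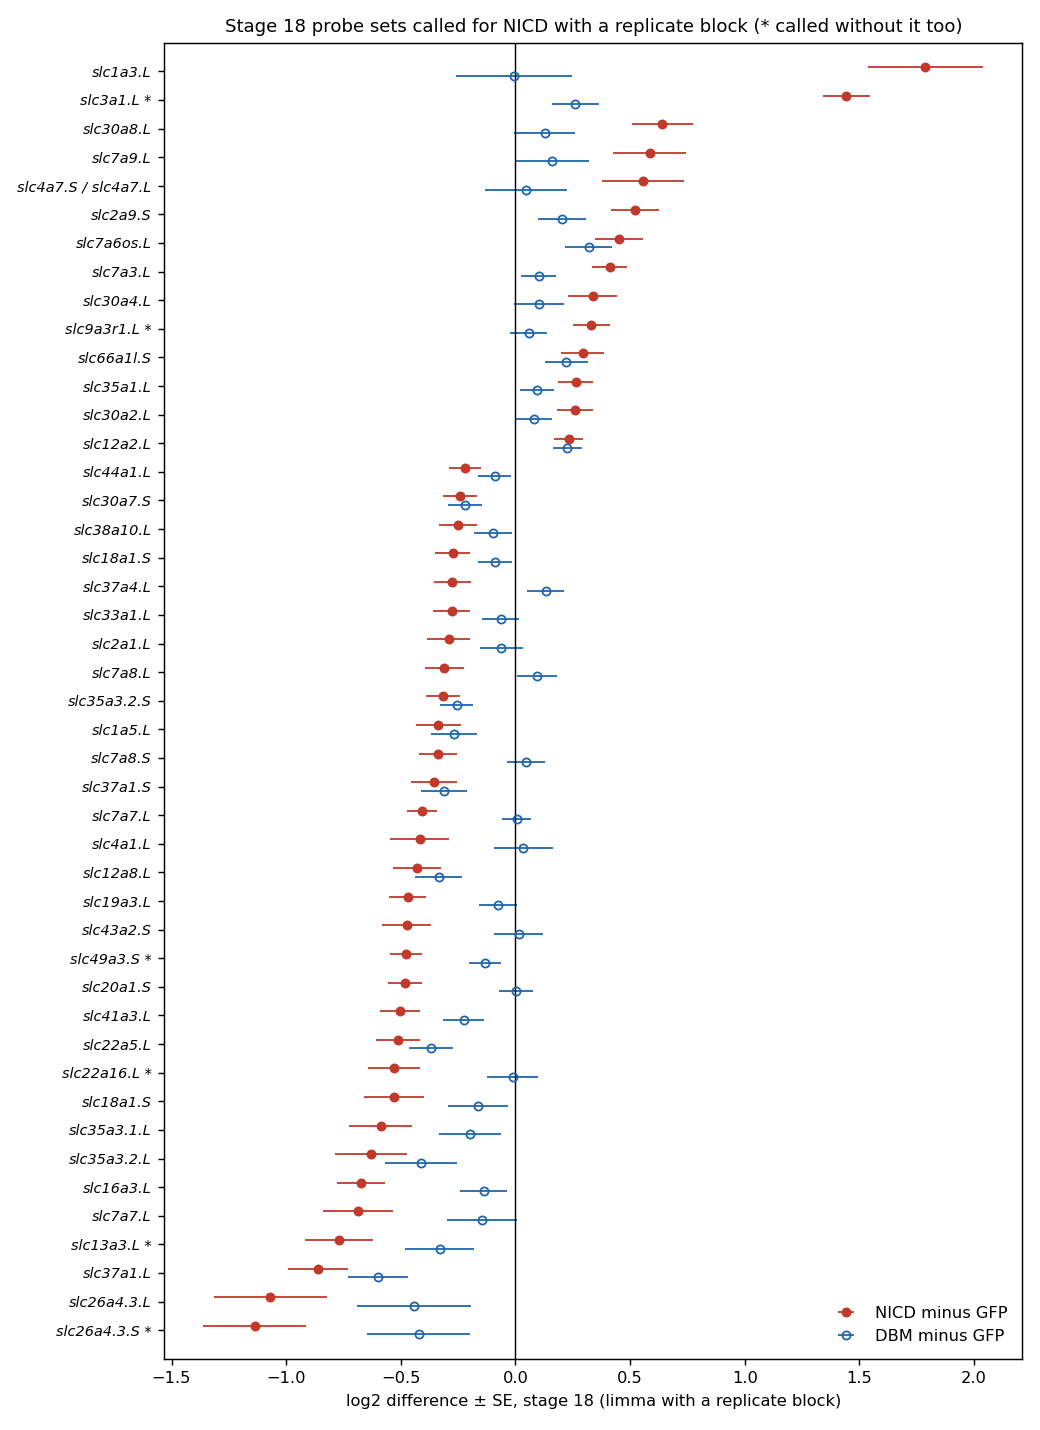
Differences from GFP at stage 18 (log2, horizontal axis, bars of 1 SE) of NICD (filled) and DBM embryos (open) in the fit with a replicate block, for the 45 member probe sets it called for NICD, sorted by the NICD difference, with a star on the 6 called without the block. Both differences of a row use the same GFP arrays, and slc1a3.L and slc3a1.L stand furthest to the right at 1.79 and 1.44.

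Between NICD and DBM embryos at stage 18, 2 members were called (0.971%, against 0.816% of all), slc3a1.L, which was higher (0.514% of all), and slc22a16.L, which was lower (0.302% of all). The gene slc22a16.L read 6.18, 6.45 and 6.48 in NICD embryos and 6.84, 6.87 and 6.94 in DBM embryos, without overlap (difference -0.52 ± 0.12, adjusted p = 0.0437), and its call was lost without any 1 of the 6 arrays. NICD and DBM arrays of this stage did not overlap for 13% of all probe sets. With the block 21 members were called (10.2%, against 6.14% of all).

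At stage 28 the count for NICD against GFP was 1 of 206 (0.485%, against 0.653% of all probe sets), slc26a4.3.S, which was lower (0.237% of all, beside 0.416% higher). With the block it was 18 (8.74%, against 6.24% of all), with 3 higher (3.03% of all) and 15 lower (3.21% of all). The lower ones included slc4a11.L, a borate transporter family member (0.46 lower), slc22a8.S, an organic anion transporter gene (0.71 lower), slc40a1.S (0.61 lower) and slc2a3.L, a glucose transporter gene (0.46 lower). Beside the decrease of slc40a1.S, the mean level of the red blood cell list was 5.27 to 5.91 on NICD arrays and 6.07 to 6.65 on GFP arrays at stage 28. The mean level of the list of liver genes was 7.15 to 7.68 on NICD arrays and 8.01 to 8.29 on GFP arrays. Without the block, 1 of 12 probe sets on each of these lists was called lower. The part of red cells or liver in the result was not tested. The gene slc6a19.L, at 4.27, 4.14 and 4.19 in NICD embryos and 4.71, 4.89 and 4.80 in GFP embryos, had an adjusted p of 0.0548 without and 0.0131 with the block. These values were low, beside a lowest member value of 3.07. The S copy of slc6a19 differed by -0.08 and was not called without the block. For DBM against GFP no member was called (0.111% of all probe sets were, 0.105% higher and 0.00616% lower), 15 had an unadjusted p below 0.05 (7.28%, against 6.8% of all), and with the block 6 were called (2.91%, against 1.96% of all).

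Between NICD and DBM embryos at stage 28, 3 members were called (1.46%, against 1.74% of all), a share no higher than that of all probe sets. All 3 encode transporters of neurons and were lower in NICD embryos (1.16% of all). With the block 17 members were called (8.25%, against 7.72% of all), 4 higher (2.65% of all) and 13 lower (5.08% of all). The lower ones included 4 of 13 anion transporters and 2 of 17 sugar transporters, and these classes were not tested. The arrays did not overlap for 19.7% of all probe sets. The gene slc32a1.S read 6.90, 6.10 and 6.65 in NICD embryos, 7.81, 7.46 and 8.03 in DBM embryos and 7.29, 6.93 and 7.16 in GFP embryos. The GFP arrays lay between those of the constructs, and NICD was below DBM by 1.21 ± 0.19 (adjusted p = 0.000774). For slc17a7.S, values of 5.90, 5.97 and 6.11 in NICD embryos stood against 7.06, 6.69 and 7.06 in DBM embryos, with GFP arrays at 6.41 to 6.49 (difference -0.94 ± 0.15, adjusted p = 0.000927).

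For slc12a5.L the pattern was another: NICD arrays (6.38, 6.18 and 6.43) overlapped with GFP arrays (6.40, 6.29 and 6.5), while DBM arrays (6.87, 6.95 and 7.46) were above both. NICD was below DBM by 0.77 ± 0.14 (adjusted p = 0.00406). DBM exceeded GFP by 0.70 ± 0.14 (adjusted p = 0.0611 without and 0.00138 with the block). These 3 calls of NICD against DBM were kept without any 1 array. On the 6 arrays of the comparison alone, those of slc32a1.S and slc12a5.L were lost (adjusted p of 0.055 and 0.0828).

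Against GFP, slc32a1.S and slc17a7.S were called only with the block, lower in NICD by 0.58 and 0.45 and higher in DBM by 0.64 and 0.50. In the opposite direction, slc1a3.L read 7.21, 7.08 and 7.75 in DBM embryos at stage 28, against 7.77, 8.81 and 9.65 in GFP embryos. That difference of -1.39 was called with the block (adjusted p = 0.00809). The effect of DBM on slc12a5.L and slc32a1.S was greater at stage 28 than at stage 18 by 0.84 for each (adjusted p of 0.187 and 0.38 without, 0.00651 and 0.017 with the block). At stage 18 the GFP values of slc32a1.S, given above, were near the lowest member value of 3.07. For this gene a smaller effect at stage 18 cannot be told apart from low signal. On the neuronal list, 9 of 17 probe sets were lower in NICD than in DBM embryos at stage 28 and none higher, with mean levels of 7.95 to 8.09 on NICD arrays and 8.60 to 8.76 on DBM arrays. The part of neuron number in the values of the 3 transporter genes was not tested.

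At stage 38, 2 of 206 members (0.971%, against 0.0955% of all probe sets) were called for NICD against GFP, both lower (0.0339% of all, beside 0.0616% higher) and both of transporters found in mammalian kidney and gut. The gene slc5a11.L read 4.84, 5.14 and 4.95 in NICD embryos, 5.38, 5.90 and 5.47 in DBM embryos and 5.52, 5.90 and 5.90 in GFP embryos. NICD arrays lay below the other 6, by 0.79 ± 0.13 against GFP (adjusted p = 0.0122) and by 0.61 ± 0.13 against DBM (adjusted p = 0.024). For slc6a19.S the values were 5.09, 5.32 and 5.33 in NICD embryos, 5.66, 6.27 and 5.81 in DBM embryos and 5.89, 6.02 and 6.43 in GFP embryos. NICD was again below the other 6 arrays, by 0.86 ± 0.15 against GFP (adjusted p = 0.019) and by 0.67 ± 0.15 against DBM (adjusted p = 0.0404). The L copy of slc6a19, which had the stronger signal at this stage, was not called against GFP with or without the block. At this stage NICD arrays did not overlap with GFP arrays for 8.62% of all probe sets, and with DBM arrays for 11.8%.

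The calls against GFP were lost for both genes without NICD replicate 1, GFP replicate 2 or GFP replicate 3, and for slc6a19.S also without NICD replicate 2. Those against DBM held only without DBM replicate 1 or NICD replicate 2 for slc5a11.L, and only without DBM replicate 1 for slc6a19.S. With the block, 7 members were called for NICD against GFP (3.4%, against 1.22% of all), 6 of them lower (0.668% of all were lower). The added decreases were those of slc5a2.L (0.69), slc26a6.2.L (0.63), slc26a1.L (0.63) and slc2a12.L (0.54), of which the first 3 are among the members that rose after stage 28 in GFP embryos, as did slc5a11.L and slc6a19.S. Such a rise was called for 45 of 206 members and for 18.9% of all probe sets. Both comparisons use the same GFP arrays of stage 38, so they are not independent, and the overlap was not tested. For slc5a2.L the 3 NICD arrays (6.66, 7.03 and 6.72) were below the 3 GFP arrays (7.17, 7.67 and 7.66), with an adjusted p of 0.107 without the block. In the fit without the block, none of 11 pronephros probe sets and none of 11 gut probe sets on the marker lists were called in that comparison. The lists were not counted with the block, so these counts do not stand beside the decreases added by it. The mean level of the pronephros list was 6.84 to 6.92 on NICD arrays and 6.93 to 7.02 on GFP arrays, and that of the gut list 8.11 to 8.62 and 8.25 to 8.86. The part of these tissues in the result was not tested.

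Against DBM at stage 38, 4 members were called (1.94%, against 0.628% of all), namely slc5a11.L, slc6a19.S and slc26a4.3.S, lower in NICD embryos (0.468% of all), and slc45a2.L, higher in them (0.16% of all). The melanosome gene slc45a2.L read 10.20, 9.87 and 10.41 in NICD embryos and 9.34, 9.14 and 9.60 in DBM embryos, without overlap (difference 0.79 ± 0.17, adjusted p = 0.0302), and its call was lost without NICD replicate 1, NICD replicate 3, DBM replicate 1 or DBM replicate 2. Against GFP its difference had opposite signs at the later stages, lower with NICD at stage 28 (-0.53, values of 7.20, 6.94 and 7.41 in NICD embryos against 7.42, 7.66 and 8.04 in GFP embryos) and higher at stage 38 (0.45, with GFP values of 9.60, 9.61 and 9.90), both called only with the block. The change of the NICD effect between these stages was 0.98, with an adjusted p of 0.631 without and 0.00645 with the block. At stage 28 slc45a2.L was also lower in DBM than in GFP embryos, by 0.51 (adjusted p = 0.418 without and 0.0181 with the block). None of the 5 probe sets on the pigment list were called for NICD at either stage in the fit without the block. The mean level of that list at stage 28 was 6.24 to 6.43 on NICD arrays, 6.29 to 6.40 on DBM arrays and 6.35 to 6.62 on GFP arrays, and at stage 38 it was 7.19 to 7.40, 6.95 to 7.17 and 7.11 to 7.22 in that order. Its most changed gene between groups at stage 28 was tyrp1.L, a melanin synthesis gene, with means of 9.47 in NICD, 9.76 in DBM and 10.24 in GFP embryos. The means of pmel.S were 9.45, 9.56 and 9.61 in the same order. The probe sets of mitf.L had means of 4.59, 3.95 and 4.12 in NICD embryos and 4.51, 4.01 and 4.01 in GFP embryos. The part of pigment cells in these results was not tested.

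For DBM against GFP at stage 38, 0 members were called with or without the block. Of all probe sets, 0.0123% were called without it and 0.114% with it. An unadjusted p below 0.05 was found for 5 members (2.43%, against 1.95% of all). The arrays did not overlap for 6.17% of all probe sets. The lowest p belonged to slc5a2.L (0.37 lower), slc29a1.L, a nucleoside transporter gene (0.36 higher), and slc30a4.L, a zinc transporter gene (0.26 higher), all with an adjusted p of 1.

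**Figure D5:**
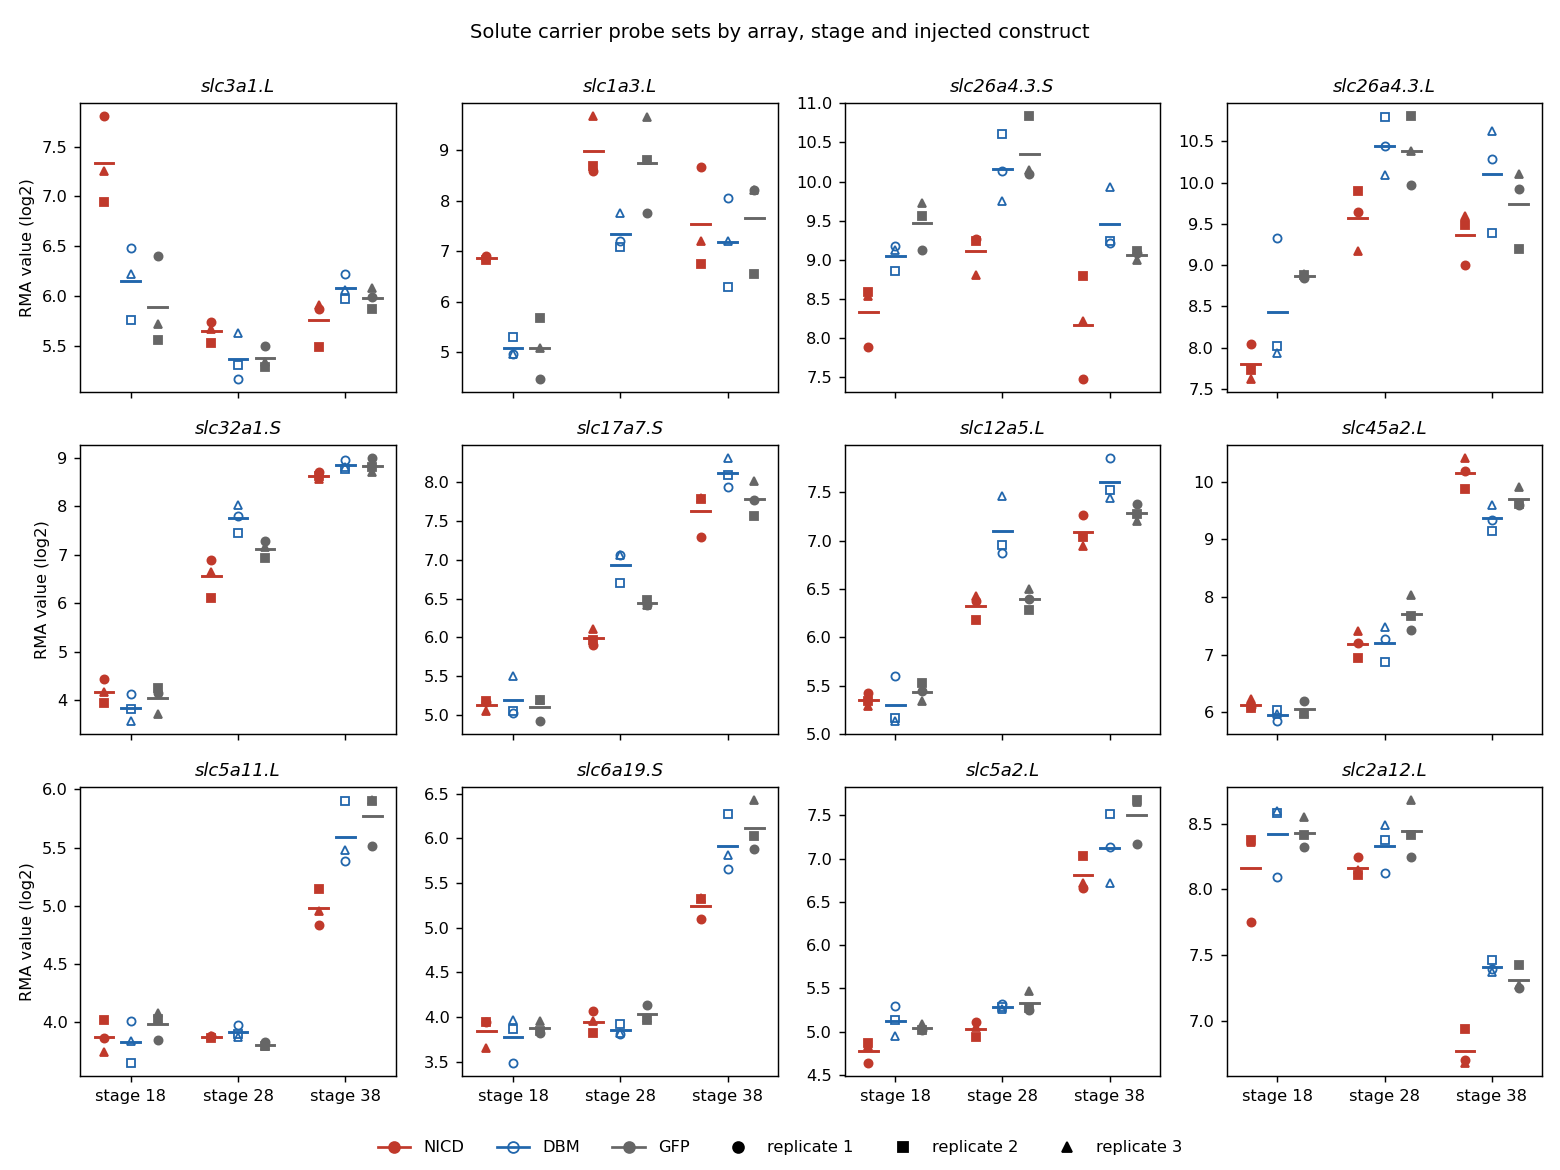
RMA values (log2, vertical axes) of 12 solute carrier probe sets on each of the 27 arrays, grouped by stage, with NICD (red, filled), DBM (blue, open) and GFP (grey, filled) from left to right, marker shape giving the replicate number and horizontal bars the means. NICD arrays of slc3a1.L stand above the others at stage 18 (6.94 to 7.80), those of slc26a4.3.S lie below GFP at stages 18 and 28, and those of slc5a11.L and slc6a19.S lie below DBM and GFP at stage 38.

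No member had a construct effect that differed between successive stages in the fit without a block, over 4 such tests, in which 0.0985% (NICD, stage 28 against stage 18; 0.0246% higher), 0.00308% (NICD, stage 38 against stage 28), 0.0246% and 0% (DBM, in the same order) of all probe sets were called. At an unadjusted p below 0.05 the members numbered 17, 11, 11 and 3, which is 8.25%, 5.34%, 5.34% and 1.46% of them, against 7.41%, 3.11%, 7.7% and 3.09% of all probe sets. With the block, the NICD effect differed between stage 28 and stage 18 for 8 members and between stage 38 and stage 28 for 3 (slc45a2.L, slc5a11.L and slc4a11.L). The GFP values of slc5a11.L at stage 28, given above, were near the lowest member value of 3.07, so a decrease there could hardly be read. The DBM effect differed for 8 members between stage 28 and stage 18 and for 0 between stage 38 and stage 28. Among all probe sets the block gave 3.2%, 0.345%, 2.7% and 0.0216% in that order.

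Members that mark a tissue but were not called against GFP in any construct comparison without the block included slc4a1.L, the anion exchanger of red cells. At stage 38 it read 7.97, 8.35 and 8.06 in NICD embryos, 8.32, 9.18 and 8.94 in DBM embryos and 8.14, 8.61 and 8.44 in GFP embryos, with overlap between all groups. With the block it was lower in NICD than in DBM embryos at stages 28 and 38, by 0.69 and 0.68, and the red blood cell list was at 7.78 to 8.05 on NICD arrays and 8.18 to 8.75 on DBM arrays at stage 38. The part of red cells in that result was not tested. The monoamine vesicle transporter gene slc18a2.L stayed between 4.07 and 4.84 on all 27 arrays and slc26a4.1.L between 4.09 and 5.12.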

How the data were processed

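RNA of 27 pools of embryos was hybridised to Affymetrix Xenopus laevis Genome 2.0 arrays. The deposited log2 values were made by the authors with RMA, which corrects background, normalizes quantiles between arrays and summarizes probe sets, and which narrows fold changes of dim probe sets. They were used as deposited. A second deposited table, with 27 columns of log2 values named by array file and 6 columns of the authors' limma p-values, was not used. Genome build and tool versions were not given in the sources used here. Array data carry no counts, so the number of arrays limits the precision.

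Groups and replicate numbers came from the sample titles and labels. A linear model of 9 groups was fitted to 32475 probe sets with limma 3.58.1 in R 4.3.3 (lmFit, contrasts.fit, eBayes), without 160 manufacturer controls, with Benjamini-Hochberg adjustment over all of them, separately for 12 comparisons and 4 interactions. Standard errors are those of the model. Replicate numbers were taken as pairing arrays because, within a stage, the residuals of all 27 pairs of equal number correlated positively (r of 0.454 to 0.811). Pairs of different number were negative at stages 28 and 38 (r of -0.434 to -0.193 and -0.423 to -0.291), but at stage 18 arrays numbered 2 and 3 also correlated with each other (r of 0.477 to 0.573), so that only number 1 stood apart there. Residuals of a group add up to nothing, so negative values follow from the positive ones of equal number and are no separate support for the pairing. The block was fitted as the number within each stage, or, between GFP stages, as the number over all stages. By the series design the 3 replicates of a group are biological.

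Symbols came from the platform annotation, and 204 of the 206 members had an Entrez identifier found in the RefSeq gene table of assembly 10.1. Of the members, 16 have a suffix for probes that match several transcripts, and the 2 that match both copies of a gene were counted but not named. Left out were 47 slc25 probe sets. The fits were tested on simulated data in which each replicate number within a stage had its own shared deviation, or none was shared. At stage 18 the numbers 2 and 3 did not separate, so the simulation does not test the block as it stands there. No sequences were used here.

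Members, classes and marker lists were chosen with earlier results of these data known. Calls on the marker lists are those of the fit without the block. Named were, for each construct against GFP, the called members or the 3 of lowest p, called members of NICD against DBM, the largest stage changes, the leading member of each class and members that mark a tissue. Members named because they were called only with the block, courses of stage 28, and the S or L partners of named genes were chosen after their values were seen. Alternatives were the block, the arrays of a comparison alone, dropping probe sets with a mean below 6, repeated quantile normalization, trend and robust eBayes (for single genes added after the data were seen), controls kept, Benjamini-Yekutieli adjustment and leaving out each array.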

Additional observations from a re-analysis of the deposited data

How the results depend on the processing

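Counts of called members moved with the treatment of the replicates. With the replicate block, against the fit without it, NICD against GFP gave 45, 18 and 7 members at stages 18, 28 and 38, against 6, 1 and 2, and NICD against DBM gave 21, 17 and 13, against 2, 3 and 4. For DBM against GFP the block gave 0, 6 and 0, against 0 at each stage, and for the changes of an effect between stages it gave 8 and 3 (NICD) and 8 and 0 (DBM), against 0. The block changed the GFP stage counts by less than 1.5 times. Fitted on the arrays compared alone, NICD against GFP gave 0 at each stage and NICD against DBM 1, 1 and 0. Benjamini-Yekutieli adjustment left 1, 0 and 0 for NICD against GFP and 0 for NICD against DBM at stages 18 and 38. Without dim probe sets, the counts were 0 for NICD against GFP at stage 38 and 1 for NICD against DBM at stages 18 and 38. That setting removes probe sets with a mean below 6 before the fit. The dim genes slc5a11.L and slc6a19.S, called at stage 38, were among those removed, so it does not test their calls. Trend and robust eBayes gave 1 for NICD against DBM at stage 18 and 0 for NICD against GFP at stage 28. Leaving out 1 array gave, for NICD against GFP, between 1 and 11 members (stage 18), 0 (stage 28) and between 0 and 3 (stage 38). For NICD against DBM it gave 1 member (stage 18), between 3 and 4 (stage 28) and between 0 and 3 (stage 38), and for DBM against GFP always 0. None of the named results compared under these settings changed direction. Among the named stage changes, leaving out an array turned 1 result, that of slc66a1l.S, into a call, and the other settings ended none. Repeated quantile normalization moved slc9a3r1.L at stage 18 to an adjusted p of 0.0501. With 3 arrays per group, small differences of dim probe sets cannot be resolved.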
